A study of Homo sapiens with 9 samples.

Results

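The hedgehog pathway genes described here are 9 genes: the ligand SHH, the receptor PTCH1, the decoy receptor HHIP, the co-receptors GAS1 and BOC, the signal transducer SMO, and the transcription factors GLI1, GLI2 and GLI3. They were taken by name, and every probe set annotated to only 1 of them was kept, which gave 25 of the 41091 probe sets with 1 gene symbol. A gene is represented by its brightest probe set on average over the 9 arrays, called the main one below, so that 9 of 19775 genes are members.

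Gene expression was measured on Affymetrix arrays in the established human embryonic stem cell (hESC) lines Shef3, H14 and Shef1, with 1 array per line in each of 3 groups. The hESC group is undifferentiated cells at day 0, grown with 4 ng/ml basic FGF and serum replacement on a feeder layer of inactivated mouse embryonic fibroblasts. The DFNB group is cells that spent 14 days on laminin in DFNB, which is DMEM/F12 supplemented with N2 and B27, with no added FGF. The FGF3+10 group had the same medium and time plus FGF3 and FGF10, both at 50 ng/ml, and the study aimed at otic progenitors, the founders of the inner ear. No hedgehog ligand, agonist or inhibitor is named in the labels, and none of the 3 lines is described as modified.

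Hedgehog ligands are secreted, lipid-modified proteins that bind PTCH1. Without ligand PTCH1 holds SMO inactive and the GLI proteins act largely as repressors, and with ligand SMO is released at the primary cilium and GLI activators form. PTCH1, HHIP and GLI1 are themselves transcribed in response to the signal, so their mRNA is commonly read as a measure of pathway activity. In the inner ear, as in the ventral neural tube, SHH from the notochord and floor plate patterns the ventral side.

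The feedback on PTCH1 acts through GLI binding sites in its promoter region, so the promoters were searched for their core letters. The 9-base GLI motif GACCACCCA, or its reverse complement TGGGTGGTC, was searched on both strands in the RefSeq promoters (GRCh38.p14), each 250 bases before to 50 after a transcript start. It was present in 83 of 35116 promoters, or 0.236%. Of the 13 promoters of 7 members in that table it was present in 1, which is 1 of the 5 promoters of PTCH1. The 250 bases before that start, on the minus strand at chr9:95509267-95509516, are shown because they hold the motif, in capitals, which runs from 172 to 164 bases before the start.

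PTCH1 promoter: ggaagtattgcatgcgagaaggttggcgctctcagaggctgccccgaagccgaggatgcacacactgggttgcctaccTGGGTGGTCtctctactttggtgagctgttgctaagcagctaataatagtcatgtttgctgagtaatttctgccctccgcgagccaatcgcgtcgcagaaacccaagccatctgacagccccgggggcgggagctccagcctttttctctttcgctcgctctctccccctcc

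The capitals mark letters that match the motif, not a measured binding site, and the arrays do not show which of the 5 PTCH1 starts was used. The other member promoters of the table, those of SHH, GLI2, HHIP, SMO, GAS1 and BOC, held no match in these windows.

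Values are the authors' normalised log values, taken as log2, with a median of 3.20 on every array and quartiles between 0.365 and 0.606 and between 6.02 and 6.46. A level below 4 is treated as low here by choice, although 4 lies above that median, and no detection limit was derived. Low values can spread widely between arrays, as in the third GAS1 probe set below. Each group holds 3 arrays that differ in cell line, so that the spread includes the lines, and their number limits the precision. A level in a whole culture cannot tell fewer cells of a type from less RNA per cell. For GAPDH the 3' probe set was brighter than the 5' one by between 0.14 and 0.53. The mean level of 7 pluripotency markers was 8.99 to 11.09 in hESC, 2.62 to 8.24 in DFNB and 3.13 to 8.93 in FGF3+10, and Shef3 had the lowest value of both media. The mean of 8 mesenchyme markers was 7.16 to 7.95 in hESC, where the collagen COL1A1, the highest of them over the 9 arrays, read 11.61 to 12.13.

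Over 14 days in DFNB the co-receptors and GLI3 averaged higher than in hESC, while SHH and GLI1 did not move together in the 3 lines. The log2 change was 2.75 for GAS1, 1.64 for GLI3 and 1.31 for BOC. It was 0.82 for PTCH1, 1.17 for HHIP, 0.78 for SMO and 0.44 for GLI2, against -0.04 for SHH and -0.14 for GLI1. None of the 9 members passed an adjusted p of 0.05 in limma, against 0.202% of all genes for DFNB and 0.177% for FGF3+10. At an unadjusted p below 0.05 there were 3 members, GAS1, GLI3 and BOC, and 3125 of 19775 genes. The median change over the 9 members was 0.82, beside -0.19 over all genes. After quantile normalisation the median of all genes was -0.03. There 8 members had a positive change, all but GLI1, against 9581 of 19775 genes, with GAS1 at 2.91 and GLI3 at 1.79.

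Of the 9 members 7 were higher in DFNB than in hESC in all 3 lines, namely GLI2, GLI3, PTCH1, HHIP, SMO, GAS1 and BOC. Of all genes 15.9% were higher in all 3 lines, and 25.9% were lower in all 3, as no member was. For 4 members, GLI3, HHIP, GAS1 and BOC, every DFNB array stood above every hESC array, against 7.8% of all genes, and no member was below in that way, against 14.3%. With FGF3 and FGF10, 4 members were higher than in hESC in all 3 lines, GLI3, PTCH1, GAS1 and BOC, against 13.3% of genes. The groups did not overlap for GLI3 and GAS1, against 5.68% of genes. No member was lower in all 3 lines or in every array there, against 24.6% and 11.3% of genes.

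**Figure D1:**
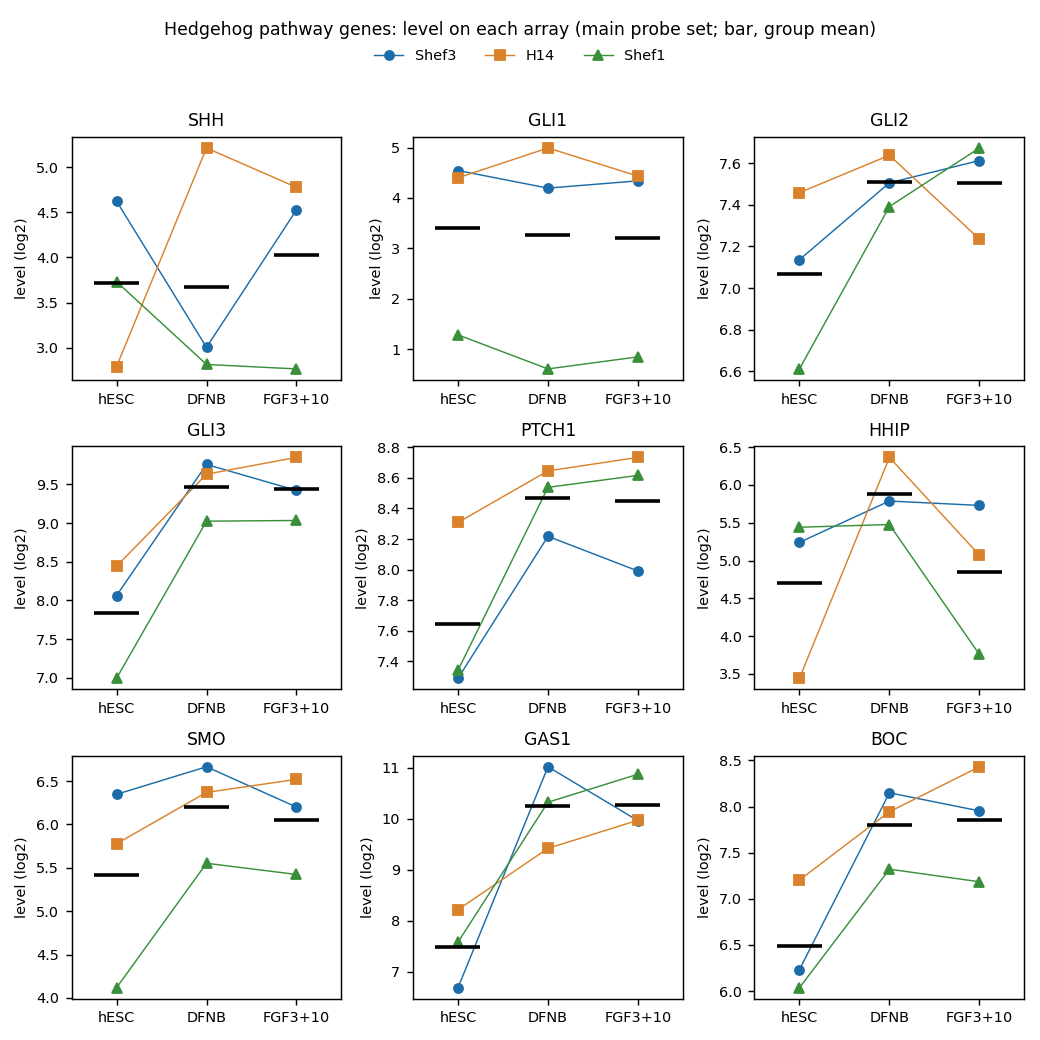
Level of each member (log2 scale, vertical axis, a separate range in each panel) on the 9 arrays by group, with 1 marker and line per cell line and a black bar for the group mean. GAS1 and GLI3 stand higher on all 6 day 14 arrays than on any hESC array, and GLI1 stands below 2 on the 3 Shef1 arrays.

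The ligand SHH gave no common direction. Its main probe set read 4.63 in Shef3, 2.79 in H14 and 3.73 in Shef1 at day 0. In DFNB it read 3.0, 5.22 and 2.81 in the same order, and in FGF3+10 4.53, 4.78 and 2.76. H14 went from the lowest hESC level to the highest DFNB level, while Shef3 and Shef1 were lower in DFNB than at day 0, and the 3 groups overlapped. The change was -0.04 ± 0.81 (SE, n = 3 and 3 arrays) for DFNB and 0.31 ± 0.81 for FGF3+10 against hESC (limma adjusted p = 0.987 and 0.911). With array weights the DFNB change was 0.46, and leaving out arrays or lines in turn gave -1.27 to 0.75, so its sign was not settled. The second probe set of SHH averaged 1.56 over the 9 arrays and did not exceed 2.67 on any of them.

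Markers of floor plate and notochord, which secrete SHH, were read along with those of ventral neural tube, which it patterns. NKX2-2, NKX6-1, NKX2-1, OLIG2 and FOXA2 are also among the transcriptional targets counted below, so their levels do not mark secreting tissue alone. Of 8 measured markers of floor plate and ventral neural tube, NKX2-2, NKX6-1, NKX2-1, OLIG2 and LMX1A were below 4 on all 9 arrays. SPON1 was the highest of the 8, with a mean of 6.94, and stood above 4 on all 9 arrays. It was higher in DFNB than at day 0 in Shef3 and Shef1 and lower in H14. Its change against hESC was 0.898 in DFNB and 0.317 in FGF3+10 (limma adjusted p = 0.454 and 0.858). The mean of the 8 was 0.88 to 2.49 in hESC, 1.35 to 1.48 in DFNB and 0.47 to 1.55 in FGF3+10. FOXA2, a factor of floor plate and endoderm, read 6.26, 6.67 and 5.99 in Shef3, H14 and Shef1 at day 0 and -3.35, 1.62 and 3.34 in DFNB. The mean of 6 measured endoderm markers, FOXA2 among them, was 6.77 to 8.17 in hESC, 1.45 to 5.08 in DFNB and 2.95 to 3.82 in FGF3+10. None of that list was called. Of the 3 measured notochord markers CHRD was below 4 on all arrays, TBXT read between 3.03 and 5.73, and NOG read 4.58 to 5.61 in hESC and 6.60 to 7.95 at day 14. Their mean was 3.68 to 4.94 in hESC, 4.47 to 5.38 in DFNB and 4.33 to 4.50 in FGF3+10. The part of these cell types in the SHH and FOXA2 values was not tested.

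PTCH1, the receptor and a target of the signal, read 7.29 in Shef3, 8.31 in H14 and 7.34 in Shef1 at day 0. It read 8.22, 8.65 and 8.54 in DFNB and 7.99, 8.73 and 8.62 in FGF3+10. Every day 14 array was above the hESC array of its own line, but the groups overlapped because H14 was already high at day 0. The change was 0.82 ± 0.37 for DFNB and 0.80 ± 0.37 for FGF3+10 (adjusted p = 0.333 and 0.443). H14 had the smallest differences, 0.34 and 0.43, and Shef1 the widest, 1.20 and 1.27. All 5 PTCH1 probe sets had a positive mean change in DFNB and 4 of 5 in FGF3+10. The other 4 averaged only from -1.23 to 3.20, none above the median of all probe sets.

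GLI1, the transcription factor most directly induced by hedgehog signalling, split by cell line and not by group. It read 4.54 in Shef3 and 4.40 in H14 at day 0, against 1.29 in Shef1. In DFNB the values were 4.20, 4.99 and 0.61, and in FGF3+10 4.34, 4.43 and 0.85. The highest Shef1 value thus lay below the lowest value of the other lines in each group. The change was -0.14 ± 1.44 for DFNB and -0.20 ± 1.44 for FGF3+10 (adjusted p = 0.972 and 0.973). With the cell line as block the standard error was 0.31, and the 95% interval of the DFNB change ran from -0.89 to 0.60 against -3.43 to 3.14 without it. GLI1 had only 1 probe set.

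In a model of group and line, limma's moderated F test called GLI1 different between lines (adjusted p = 0.0171), as it did 0.46% of all genes. H14 exceeded Shef1 by 3.69 and Shef3 exceeded Shef1 by 3.44. The means were 4.36 ± 0.18 in Shef3 (SD, n = 3 arrays), 4.61 ± 0.33 in H14 and 0.92 ± 0.34 in Shef1. With values below 4 set to 4 the differences were 0.61 and 0.36 and the call was lost (adjusted p = 0.252), since GLI1 reached only 4.99 at most. Leaving out hESC Shef1 (adjusted p = 0.0667), the Shef3 or Shef1 array of DFNB (0.0738 and 0.147), or the Shef3, H14 or Shef1 array of FGF3+10 (0.0630, 0.0870 and 0.136) also ended it. In those fits, and in the 3 that kept it, the H14 difference was between 3.38 and 3.93.

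SMO, the transducer, also stood lowest in Shef1, and GLI1 and SMO were the 2 members with all 3 Shef1 arrays below the other 6, against 11.2% of all genes. SMO read 6.35, 5.78 and 4.12 in Shef3, H14 and Shef1 at day 0, 6.66, 6.37 and 5.55 in DFNB and 6.20, 6.52 and 5.42 in FGF3+10. The F test gave an adjusted p of 0.143 for SMO, 0.196 for GLI3 and 0.216 for BOC, and 0.323 or more for the other 5. The change of SMO was 0.78 ± 0.61 for DFNB and 0.63 ± 0.61 for FGF3+10 (adjusted p = 0.555 and 0.711). The poly-A spike-ins, added before labelling, averaged 7.45 ± 0.04 on the Shef1 arrays (SD, n = 3), 5.34 ± 0.06 on H14 and 5.33 ± 0.35 on Shef3, so the spike-in level differed along with the line. Its part in the GLI1 and SMO values was not tested. After quantile normalisation H14 exceeded Shef1 by 3.62 in GLI1 (adjusted p = 0.0232).

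**Figure D2:**
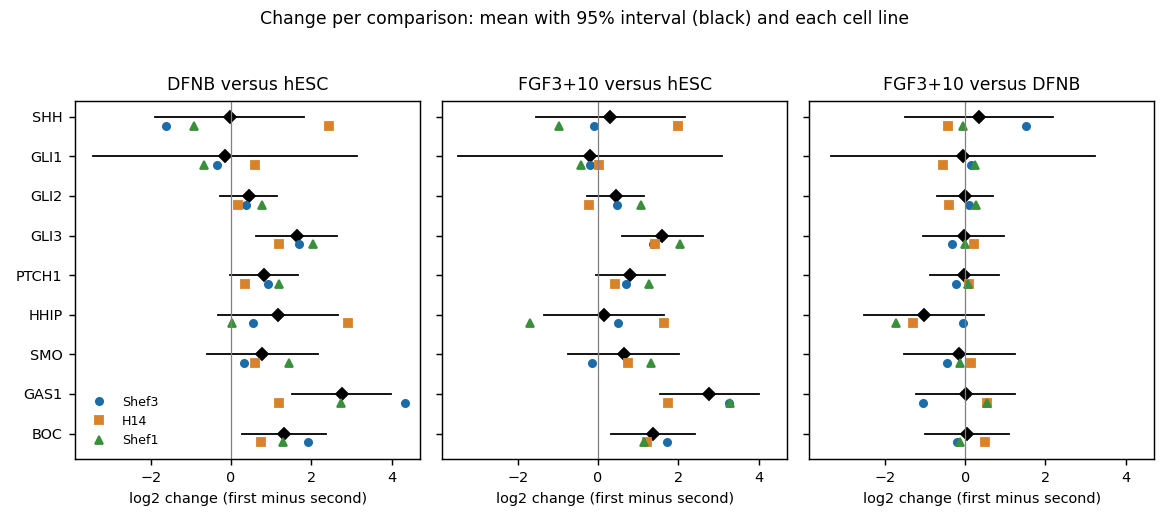
Log2 change of the 9 members (rows) in the 3 comparisons: black diamonds and bars give the limma estimate with its 95% interval, and coloured markers the change within each cell line. GAS1, GLI3 and BOC have intervals above 0 in both comparisons with hESC, and all 9 intervals of FGF3+10 against DFNB include 0.

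GLI3, the main repressor of the pathway, read 8.06 in Shef3, 8.44 in H14 and 7.0 in Shef1 at day 0. It read 9.76, 9.63 and 9.02 in DFNB and 9.42, 9.85 and 9.03 in FGF3+10. The lowest day 14 array was above the highest hESC array, a pattern shown by GLI3 and GAS1 among the members and by 4.23% of all genes. The change was 1.64 ± 0.44 for DFNB (adjusted p = 0.153) and 1.60 ± 0.44 for FGF3+10 (adjusted p = 0.203). With array weights the DFNB change was 1.51 and passed (adjusted p = 0.0458). That setting called 1612 of 19775 genes in DFNB, against 40 in the main fit. The second probe set agreed in size, with 1.67 and 1.59, and the third, at a mean of 4.40, gave 0.55 and 0.56.

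GLI2, the main activator of the family, had the smallest positive change from hESC in DFNB. It read 7.14, 7.46 and 6.61 in Shef3, H14 and Shef1 at day 0, 7.51, 7.64 and 7.39 in DFNB and 7.61, 7.24 and 7.67 in FGF3+10. The groups overlapped, and the change was 0.44 ± 0.31 in both comparisons (adjusted p = 0.513 and 0.613). The 95% interval in DFNB ran from -0.26 to 1.15. Of its 3 probe sets 2 had a positive change in each comparison and the third a negative one.

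GAS1, a membrane-anchored co-receptor that helps present SHH to PTCH1, showed the widest change of the members. It read 6.69 in Shef3, 8.22 in H14 and 7.58 in Shef1 at day 0, 11.01, 9.42 and 10.32 in DFNB, and 9.96, 9.97 and 10.87 in FGF3+10. No day 14 array was below 9.42 and no hESC array above 8.22. The change was 2.75 ± 0.54 for DFNB and 2.77 ± 0.54 for FGF3+10 (adjusted p = 0.0799 and 0.0971). With a trend on the mean level both passed (adjusted p = 0.0372 and 0.0442), and the DFNB change also passed with array weights (0.0306) and without dim genes (0.0448). The trend called 153 of 19775 genes in DFNB and 76 in FGF3+10. In DFNB array weights called 1612, and the fit without dim genes 122 of 11502, against 40 of 19775 in the main fit. The difference in DFNB was widest in Shef3, at 4.32, and smallest in H14, at 1.20.

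The other GAS1 probe sets did not all follow. The second, at a mean of 2.33, gave -0.04 in DFNB and -0.56 in FGF3+10. The third, at a mean of -2.72, gave 4.32 and 5.11, with a standard error of 2.40.

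BOC, a co-receptor of the immunoglobulin family, read 6.23 in Shef3, 7.20 in H14 and 6.04 in Shef1 at day 0. It read 8.15, 7.94 and 7.32 in DFNB and 7.95, 8.43 and 7.18 in FGF3+10. All DFNB arrays exceeded all hESC arrays, but FGF3+10 Shef1 was just below hESC H14. The change was 1.31 ± 0.46 and 1.37 ± 0.46 (adjusted p = 0.236 and 0.281). All 3 BOC probe sets were higher than at day 0 in every line and both media, by 2.56 for the second in each medium, and by 0.52 in DFNB and 0.63 in FGF3+10 for the third.

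**Figure D3:**
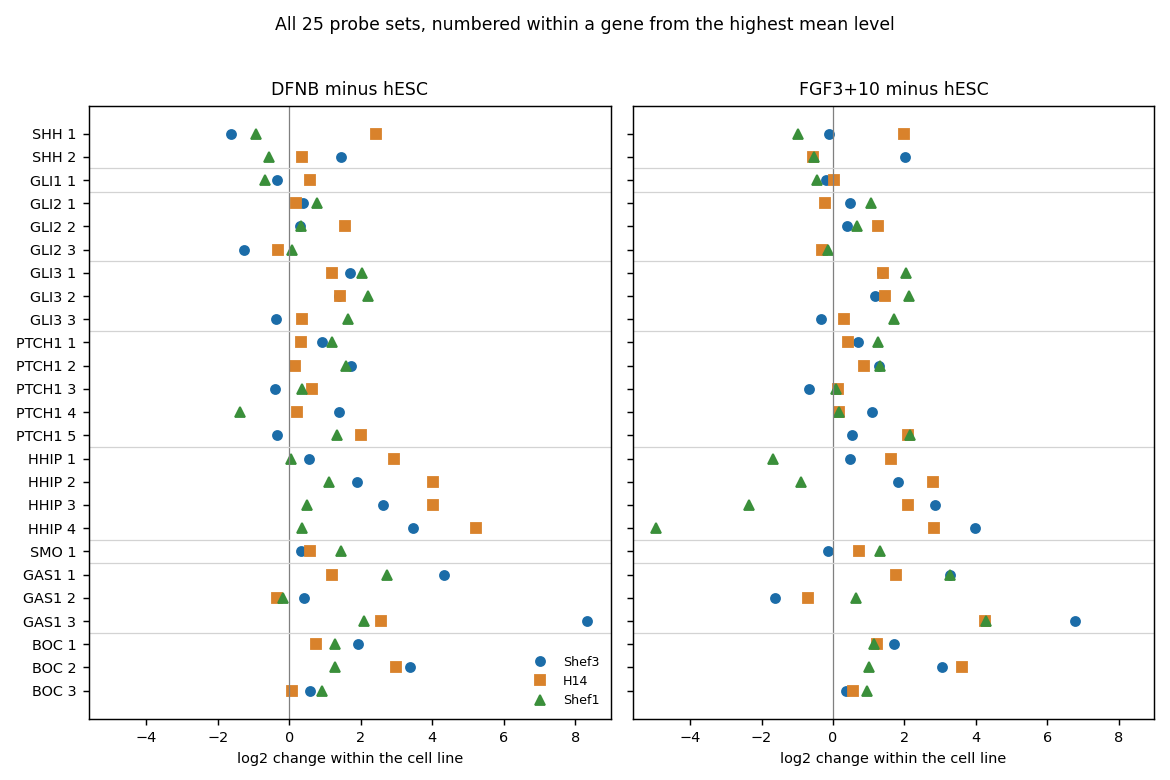
Log2 change from hESC within each cell line (horizontal axis) for all 25 probe sets, numbered within a gene from the highest mean level, in DFNB (left) and FGF3+10 (right). The 3 BOC probe sets lie right of 0 in every line, and the 4 HHIP probe sets do so only in DFNB. Of the 25, 16 do so in DFNB and 12 in FGF3+10. The count falls for HHIP (4 to 0), GLI2 (2 to 1) and SMO (1 to 0) and rises for PTCH1 (2 to 4). The share of all probe sets is not given here.

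HHIP, which binds hedgehog ligands and keeps them from PTCH1, had a wide spread between lines in FGF3+10. The main probe set read 5.24 in Shef3, 3.44 in H14 and 5.44 in Shef1 at day 0, 5.79, 6.37 and 5.48 in DFNB, and 5.73, 5.07 and 3.76 in FGF3+10. DFNB lay just above hESC in Shef1 and well above it in H14, while FGF3+10 Shef1 was the lowest day 14 array. The change against hESC was 1.17 ± 0.66 for DFNB and 0.14 ± 0.66 for FGF3+10 (adjusted p = 0.417 and 0.956). The other 3 probe sets gave 1.24, 0.87 and 0.62 for FGF3+10, and the mean of all 4 gave 0.72 (adjusted p = 0.807). All 4 HHIP probe sets were higher in DFNB than at day 0 in all 3 lines, with mean changes of 1.17, 2.34, 2.39 and 3.01 (adjusted p = 0.479, 0.212, 0.293 and 0.406 over all probe sets). Probe sets of 1 gene are not independent of each other.

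Between the media, FGF3+10 minus DFNB was -1.02 ± 0.66 for HHIP (95% interval from -2.53 to 0.48, adjusted p = 1.0), and it was the 1 member lower in FGF3+10 in all 3 lines, against 12.5% of all genes. Within the lines it was -0.06 (Shef3), -1.29 (H14) and -1.72 (Shef1). The other 3 HHIP probe sets gave -1.11, -1.52 and -2.39, negative in H14 and Shef1, with only 1 of the 3 negative in Shef3 as well. The mean of 8 mesenchyme markers was 7.42 to 10.29 in DFNB and 5.73 to 9.19 in FGF3+10, and none of the 8 was called. FGF3+10 Shef1 had the lowest value of that list as it had of HHIP at day 14. The part of these cells in the HHIP values was not tested.

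**Figure D4:**
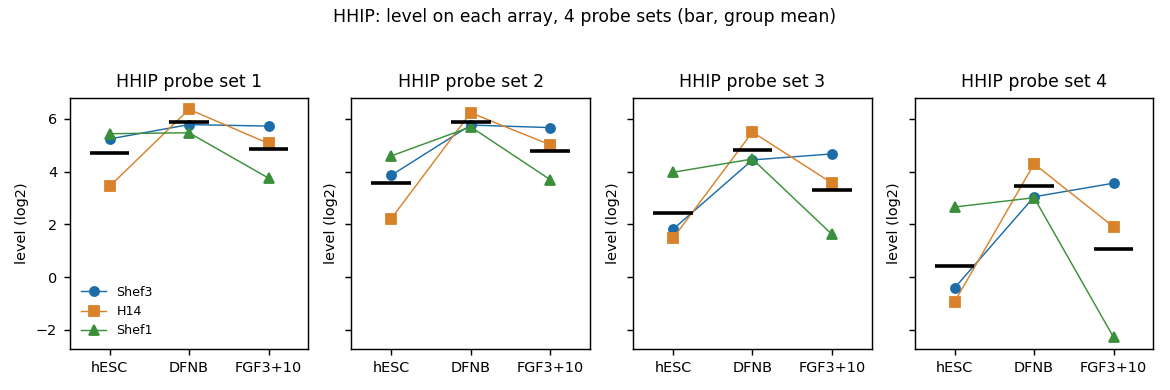
Level of HHIP (log2 scale) on the 9 arrays in its 4 probe sets, ordered by mean level, with a line per cell line and a bar for the group mean. Shef1 is lower in FGF3+10 than in DFNB in all 4 panels, from 5.48 to 3.76 in the first, where Shef3 read 5.79 and 5.73.

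No difference between the media was detected for any member. None of the 9 was called between FGF3+10 and DFNB, at an adjusted or an unadjusted p of 0.05, in limma, and the share of all genes called was 0.0%, with 300 genes at an unadjusted p below 0.05. No member was higher in all 3 lines, against 9.4% of genes, and the media overlapped in every member, while 1.46% of genes were higher and 1.72% lower without overlap. The difference was 0.01 for GAS1 (95% interval from -1.21 to 1.24), 0.05 for BOC (-0.99 to 1.09), -0.04 for GLI3 (-1.04 to 0.97), -0.02 for PTCH1 (-0.87 to 0.83) and -0.005 for GLI2 (-0.71 to 0.70). It was 0.35 for SHH (-1.50 to 2.19) and -0.15 for SMO (-1.53 to 1.23). For GLI1 it was -0.06, with an interval from -3.35 to 3.23 that narrowed to -0.80 to 0.69 with the cell line as block. These intervals leave room for about 1 log2 unit either way in most members. The comparisons of DFNB and of FGF3+10 with hESC share the 3 hESC arrays, so their likeness is not independent evidence.

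Of 62 other pathway genes that were measured, SCUBE3 was the 1 called in each comparison with hESC, and none was lower by that test. SCUBE3, a secreted protein related to SCUBE2, which helps release hedgehog ligands, read 6.43 in Shef3, 5.26 in H14 and 4.75 in Shef1 at day 0. It read 9.40, 9.11 and 8.85 in DFNB and 9.09, 9.52 and 8.45 in FGF3+10. It rose by 3.64 ± 0.48 in DFNB and 3.54 ± 0.48 in FGF3+10 (adjusted p = 0.0287 and 0.0367). With the mean of its probe sets the changes were 2.65 and 2.86, and neither was called (adjusted p = 0.0690 and 0.0639). The DFNB call held only without hESC Shef3 (0.0355), FGF3+10 Shef3 (0.0420) or FGF3+10 Shef1 (0.0378), and without any 1 of the other 6 arrays it was lost (0.0557 to 0.142). The FGF3+10 call held only without hESC Shef3 (0.0436), and lay between 0.0615 and 0.142 without any 1 of the other 8.

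With the cell line as block SCUBE1 was called too (adjusted p = 0.0173 in DFNB and 0.0259 in FGF3+10, against 0.0694 and 0.109 without it), and in FGF3+10 TBX2, at 0.0499. The block called 189 of 19775 genes in DFNB and 115 in FGF3+10, against 40 and 35 without it. SCUBE1 went from -0.58 ± 1.43 in hESC to 5.16 ± 1.63 in DFNB and 4.63 ± 1.57 in FGF3+10. TBX2, a repressor induced by several signals, went from 3.27 ± 0.26 to 6.27 ± 1.16 and 6.74 ± 0.40. SCUBE1, TBX2 and the genes of the next 3 sentences were chosen after their values were seen. The ligand IHH read 4.23 ± 1.62 in hESC, 0.76 ± 0.51 in DFNB and 0.58 ± 1.54 in FGF3+10 (adjusted p = 0.153 and 0.176). The ciliary regulator EVC2 had a change of -2.12 ± 0.39 and -1.81 ± 0.39 (adjusted p = 0.0692 and 0.116). FOXA2 had a change of -5.77 ± 1.40 and -4.74 ± 1.40 (adjusted p = 0.129 and 0.228). With values below 4 set to 4, EVC2 (adjusted p = 0.0291 and 0.0445) and FOXA2 (0.00637 and 0.00770) were called lower in both media, and the change of SCUBE1 was 1.21 in DFNB (0.465). That setting called 183 of 13406 genes in DFNB and 123 in FGF3+10. With the mean of probe sets EVC2 gave -1.07 and -0.55 (0.308 and 0.684), and FOXA2 -4.14 and -4.03 (0.0850 and 0.106). In that setting SCUBE1 gave 2.71 and 2.25 (0.181 and 0.310), and TBX2 2.27 and 3.21 (0.209 and 0.143).

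By role, the 8 genes of ligands and their release had a median change of 1.63 in DFNB and 1.36 in FGF3+10, with 1 called higher. The 5 receptors and co-receptors had medians of 0.99 and 0.76 with 5 of 5 positive and none called, the 19 cytoplasmic regulators 0.41 and 0.32, and the 9 genes of the cilium 0.36 and 0.26. The 21 transcriptional targets had medians of 0.03 and -0.04, with 11 and 10 of 21 positive and none called. Of all 19775 genes 7810 had a positive change in DFNB and 7432 in FGF3+10. Over all 62 the median was 0.42 in DFNB and 0.29 in FGF3+10, beside -0.19 over all genes in both. Between FGF3+10 and DFNB no gene of the 62 was called, and the median was -0.06. There the largest differences among genes with a mean of at least 4 in 1 of the 2 media were -0.83 ± 1.01 for FOXF2, 0.79 ± 0.82 for PRDM1, -0.78 ± 0.85 for FOXF1 and -0.70 ± 1.02 for EVC. FOXF1 and FOXF2 are targets of the signal in mesenchyme, PRDM1 is a repressor and EVC works with SMO at the cilium.

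**Figure D5:**
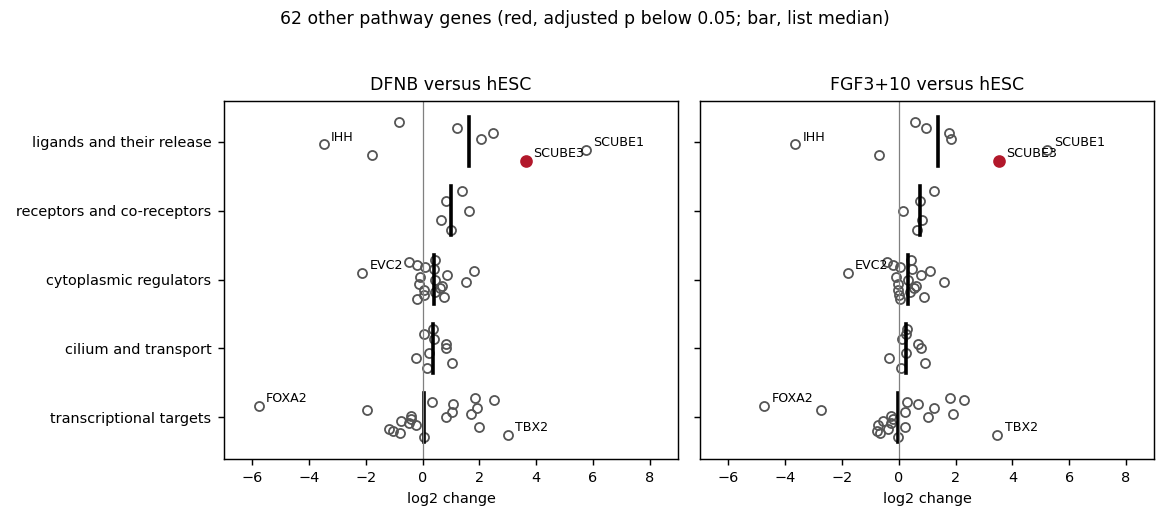
Log2 change of 62 other pathway genes (circles) by role in DFNB (left) and FGF3+10 (right) against hESC, with a black bar at each list's median and filled red circles for genes past an adjusted p of 0.05. SCUBE3 is the only filled circle in each panel, and the transcriptional targets spread on both sides of 0.

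Among the 11495 other genes with a mean level of at least 4, those whose levels ran most like a member over the 9 arrays were picked by Pearson's r. The 9 arrays share 3 lines and 3 groups, and the highest of so many coefficients is high in any case, so these are descriptions. GAS1 ran most like GRIP1 (r = 0.99, n = 9 arrays) and IFT88 (0.98), a protein of ciliary transport that is on the cilium list. GLI3 ran most like COL2A1 (0.99), a cartilage and otic capsule collagen, and APBA2 (0.98). BOC ran most like BAIAP2-DT and GLIS2 (both 0.98), and PTCH1 like USP3 (0.95) and KBTBD11 (0.94).

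GLI1, with its split between lines, ran most like ZNF667-AS1 and NUCB1 (both 0.99), and SMO like CTDSP1 (0.99) and NCOA1 (0.98). HHIP ran most like TACC1 (0.96) and SERTAD4-AS1 (0.94), SHH like ITGA2 (0.98) and CHMP1B (0.91), and GLI2 like BTBD7 and VPS13B (both 0.91). Among the members themselves the closest pair was GLI3 and BOC (r = 0.95), and SHH and GAS1 had the lowest coefficient, -0.30.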

How the data were processed

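The deposited table holds 1 value per probe set and array on a logarithmic scale (read here as log2), with the same median on every array, set by the authors. The logarithm's base, the background correction and the probe summary are not given in the sources used. Per the labels' protocols, amplification by the 3' IVT method started from 200 ng RNA, and biotin was the label. Of 54675 probe sets, 41091 had 1 gene symbol in the platform annotation, 1801 several and 11721 none, with 62 controls. Entrez identifiers gave current RefSeq symbols for 41037 of them. Some pathway and marker genes had no probe set of their own and are not analysed here.

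The comparisons used limma 3.58.1 under R 4.3.3 (lmFit and eBayes, a mean per group, 1 spread over all 9 arrays, Benjamini-Hochberg over all 19775 genes, called below 0.05). The fit was tested on simulated data. Every group holds each line once, and this label pairs the arrays. The deviations of same-line arrays from their group means correlated at 0.105, 0.0861 and 0.338 (Shef3, H14, Shef1) for DFNB and hESC, 0.181, 0.258 and 0.283 for FGF3+10 and hESC, and 0.400, 0.331 and 0.713 for FGF3+10 and DFNB. The labels do not say whether the arrays of a line came from separate cultures, so p-values measure the spread between these arrays. The main model has no block. Named are all 9 members, up to 4 called genes of the other pathway genes (otherwise the 4 largest changes), and the 2 genes of most like pattern per member. Marker genes are named from the floor plate, notochord, endoderm, mesenchyme and dorsal neural lists. The pluripotency and otic lists are given as means only. The members and lists were chosen with earlier results of these data known. Promoters are RefSeq's. Alternatives covered the block, normalisation, low values, probe sets, the spread, array weights and left-out arrays.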

Additional observations from a re-analysis of the deposited data

Results flagged for a closer look

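For SHH and GLI1 both day 14 arrays of one cell line lay above its hESC array while those of the other lines lay below, a difference between lines that was not tested. Each change is the mean of DFNB and FGF3+10 against the same single hESC array. The change of SHH was 2.21 in H14, -0.86 in Shef3 and -0.94 in Shef1. That of GLI1 was 0.31 in H14, -0.28 in Shef3 and -0.56 in Shef1. Some single differences were close to 0, with 0.03 for GLI1 in H14 and -0.10 for SHH in Shef3, both in FGF3+10. The second SHH probe set, at low levels, gave 1.45 and 2.00 in Shef3 (DFNB and FGF3+10), against the main one. In H14 it gave 0.37 and -0.56, and in Shef1 -0.56 and -0.52.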

How the results depend on the processing

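GAS1, GLI3, BOC and PTCH1 kept a positive change against hESC under all 168 alternatives run on them, and over all members 500 of 561 kept their direction. Both counts include settings that left the difference of group means as it was, so its sign could not turn. The GAS1 change in DFNB stayed at 2.75 with the block, with a trend, with every probe set tested and without dim genes. It also stayed there with values below 4 set to 4, on the DFNB and hESC arrays alone, and with an FGF3+10 array left out. The changes that turned sign had not been called, and where no value below shows a cause, the cause was not tested. For DFNB against hESC, SHH gave 0.026 after quantile normalisation, 0.20 with values below 4 set to 4, 0.19 with the mean of probe sets and 0.46 with array weights, and GLI1 0.081 with the floor and 0.17 with weights. For FGF3+10 against DFNB, GLI2 gave 0.013 and PTCH1 0.0078 after quantile normalisation, 0.098 and 0.13 with the mean of probe sets, and with weights PTCH1 gave 0.19, GLI3 0.024 and GAS1 -0.27. Leaving out arrays or lines in turn gave, against hESC, -1.27 to 0.75 for SHH and -1.21 to 1.18 for GLI1 in DFNB, and -0.53 to 0.95 for SHH, -1.26 to 0.98 for GLI1, -0.60 to 1.06 for HHIP and -0.015 to 1.10 for SMO in FGF3+10. Between the media it gave -0.24 to 1.12 for SHH, -1.38 to 1.12 for GLI1, -0.15 to 0.19 for GLI2, -0.26 to 0.16 for GLI3, -0.16 to 0.21 for PTCH1, -0.47 to 0.16 for SMO, -0.40 to 0.55 for GAS1 and -0.24 to 0.39 for BOC.

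Members called in DFNB numbered 1 without dim genes (7 members tested), 1 with a trend and 2 with array weights, and in FGF3+10 1 with a trend. Of all genes, DFNB called 122 of 11502 without dim genes, 153 of 19775 with a trend and 1612 with weights. FGF3+10 called 76 of 19775 with a trend. The member median in DFNB was 1.17 without dim genes and 0.63 to 1.18 with arrays left out, and between the media -0.24 to 0.16. Members called for cell line numbered 0 with the floor, 4 with weights and 0 to 1 with arrays left out. The share of all genes called for cell line in these settings is not given here, so the counts cannot be set against it. Without dim genes the count was 0, but GLI1, with a mean of 3.30, was not among the genes tested there. That 0 therefore does not bear on the GLI1 call. Of other pathway genes, DFNB called 2 with the cell line as replicate block, 3 with the floor, 3 without dim genes, 0 with the mean of probe sets, 3 with a trend, 11 with weights, 0 on the 6 arrays alone and 0 to 1 with arrays left out. FGF3+10 called 3 with the block, 3 with the floor, 2 without dim genes, 0 with the mean of probe sets, 0 with every probe set tested, 2 with a trend, 2 with weights, 2 on the 6 arrays alone and 0 to 2 with arrays left out. Of all 19775 genes the block called 189 in DFNB and 115 in FGF3+10, and weights called 1612 and 284. The floor called 183 and 123 of 13406. The block changed no call of a member. With it, limma's adjusted p in DFNB and FGF3+10 was 0.0562 and 0.0724 for GLI3, and 0.0929 and 0.113 for BOC. For GAS1 it was 0.0779 and 0.101. With 3 arrays a group, changes under about 1 log2 unit could not be resolved for most members. Larger ones also went uncalled in the main fit, such as GAS1 at 2.75 and GLI3 at 1.64 in DFNB (limma adjusted p = 0.0799 and 0.153).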
